A study of Mus musculus with 4 samples.

Results

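The hepatocyte is a polarised cell that takes up bile acids, hormones and drugs from sinusoidal blood on one face and pumps bile acids, phospholipid, sterols and conjugates into the bile canaliculus on the other. Uptake is the work of solute carriers, chiefly the sodium-dependent bile acid carrier Slc10a1 (NTCP) and the organic anion carriers of the Slco1 family. Export is the work of ATP-driven ABC pumps. Several of these genes are textbook targets of FXR, the bile acid receptor encoded by Nr1h4, and of other nuclear receptors. The genes described here are 6 canalicular exporters (Abcb11, Abcb4, Abcc2, Abcg2, Abcg5 and Abcg8) and 4 sinusoidal carriers (Slc10a1, Slco1a1, Slco1a4 and Slco1b2), chosen by name. All probe sets that the platform annotation assigns to these symbols were taken. All 10 genes were represented, of 12393 genes with a probe set of 1 symbol, by 16 of the 22626 probe sets tested. Of the 16, 6 report canalicular and 10 report sinusoidal genes.

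Livers of 2 mice starved for 24 h were set against livers of 2 control mice, with 1 Affymetrix array per mouse. All 4 animals were wild type, aged 1 month and bred on C57/BL6, and the labels call the mice of a group biological replicates. The labels give neither sex nor the feeding of the controls. Their description field calls both starved mice injected and both control mice not injected, without naming an agent, and neither the titles nor the treatment field mention an injection. If that field is right, starvation and injection cannot be told apart in any difference given here. Signals are log2 values made with RMA, a summary of the probes of each probe set, and each change is given in log2 units, starved minus control. No filter on low signals was applied, and no detection calls were used.

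Every member gene except Slco1b2 was read by probe sets whose mean signal over the 4 arrays lay at or above the percentile of 80.2 of all probe sets, and Slco1b2 had 2 of its 5 probe sets there. Hepatocyte markers were strong, with 11 of 12 listed genes measured, the lowest of them at the percentile of 99.5. Albumin (Alb) read 15.26 and 15.28 on the starved arrays and 15.30 and 15.21 on the control arrays. At an unadjusted p under 0.05 with 1 probe set per gene, 0 of the 11 were higher in starved liver and 1 lower, against 5.31% and 6.05% of all genes. The lower gene was Fgb, with a change of -0.34 (limma, adjusted p = 0.374), and the list median was 0.015. The linear signals of the bile duct list, of which 9 of 12 genes were measured, summed to 493 to 554 in starved and 531 to 563 in control livers. For 10 of 10 sinusoidal endothelial genes the sums were 2947 to 3646 in starved and 2345 to 4663 in control livers. For 9 of 10 Kupffer cell genes they were 8378 to 9027 in starved and 8334 to 10568 in control livers, and for 9 of 10 stellate cell genes 5028 to 5076 in starved and 3654 to 6523 in control livers. In all 4 of these lists the starved range of the sum overlapped the control range, but such sums rest mostly on the brightest genes. None of the genes of these lists passed over all probe sets. At an unadjusted p under 0.05 with 1 probe set per gene, 1 bile duct, 1 Kupffer cell and 1 endothelial gene were higher, against 5.31% of all genes, and 1 bile duct and 2 stellate cell genes were lower, against 6.05%. Of these, 3 are named after their values were seen. The endothelial gene Lyve1 read 8.89 and 8.02 in starved livers, against 6.64 and 6.64 in control livers. Lyve1 had a change of 1.81 ± 0.28 (SE), the Kupffer cell gene Marco 0.70 ± 0.19 and the stellate cell gene Col3a1 -1.53 ± 0.24. Their adjusted p was 0.106, 0.269 and 0.110 in limma. The median change was -0.090 in the endothelial, -0.11 in the Kupffer cell and -0.10 in the stellate cell list. It was 0.022 in the bile duct list, against 0.0031 over all genes. Lyve1 and Marco thus differed in sign from the medians of their lists. The part of these cells in the transporter values was not tested. A tissue array cannot tell fewer cells of a type from less RNA per cell.

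None of the 16 transporter probe sets passed the test across the whole table (limma, Benjamini-Hochberg adjusted p under 0.05), a rule that called 13 of 22626 probe sets, or 0.0575%. At an unadjusted p under 0.05, 2 of the 16 were higher in starved liver, against 5.42% of all probe sets, and 3 were lower, against 6.04%. These 5 probe sets belong to 4 genes, with 1 gene higher and 1 gene lower on each face of the cell. Abcb4 and Slco1a4 had the higher signals, and Abcb11 and Slco1a1 the lower ones. Both starved arrays lay above both control arrays in 6 of the 16 probe sets, against 21.3% of all, and below them in 3, against 20.6% of all. In the remaining 7 the groups overlapped.

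**Figure D1:**
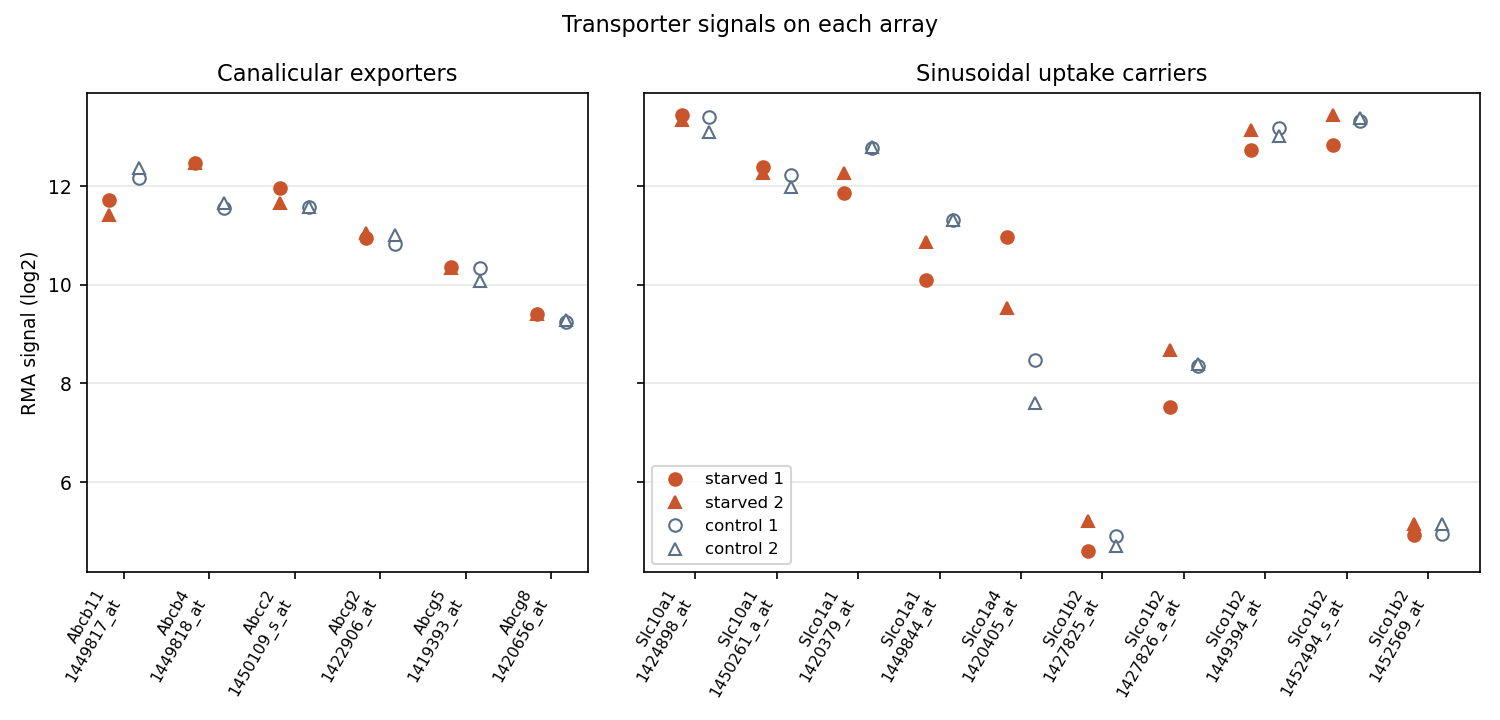
Log2 RMA signal of each of the 16 transporter probe sets, with the canalicular exporters on the left and the sinusoidal carriers on the right. Filled symbols are starved livers and open symbols control livers, with circles for mouse 1 and triangles for mouse 2. Abcb11 and both Slco1a1 probe sets lie lower in both starved livers, Abcb4 and Slco1a4 lie higher, and the starved livers stand farthest apart in Slco1a4 and in the Slco1b2 probe set 1427826_a_at.

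On the canalicular face the phospholipid pump had the higher and the bile salt pump the lower signal in starved liver, neither past the test. Abcb4, also called Mdr2, is the floppase that delivers phosphatidylcholine to bile, where it shields the duct lining from bile salts. Its gene lies on chromosome 5 at 8893614 to 8959226 in GRCm38.p6, the assembly used for all gene positions here. Abcb4 (1449818_at) read 12.47 and 12.47 in starved livers, against 11.56 and 11.66 in control livers. The groups were well apart, and the starved pair was the closest of any member. The change was 0.86 ± 0.11 (log2, SE, n = 2 per group), a 1.81-fold higher signal with a 95% interval of 0.57 to 1.14, and the adjusted p was 0.0893 in limma. It was the smallest adjusted p of any member and did not pass. With each array left out in turn the change ran from 0.80 to 0.91.

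Abcb11, the bile salt export pump that sets the rate of bile salt secretion, read 11.72 and 11.42 in starved livers, against 12.16 and 12.36 in control livers (1449817_at). Both starved values lay below both control values, with 0.44 between the nearest pair. The change was -0.69 ± 0.15 (SE), with a 95% interval of -1.07 to -0.31, so the control signal was 1.61-fold that in starved liver (limma, adjusted p = 0.208). Abcb11 lies on the minus strand of chromosome 2 at 69238282 to 69342616. Its promoter is shown because the classical binding site of FXR is an inverted repeat of the receptor half-site AGGTCA spaced by 1 base, and the Abcb11 window holds a version of it. The line gives chr2:69342567-69342866, minus strand, from 250 bases before to 50 bases after the annotated start (RefSeq, GRCm38.p6), and the capitals mark a match with at most 1 mismatch.
Abcb11: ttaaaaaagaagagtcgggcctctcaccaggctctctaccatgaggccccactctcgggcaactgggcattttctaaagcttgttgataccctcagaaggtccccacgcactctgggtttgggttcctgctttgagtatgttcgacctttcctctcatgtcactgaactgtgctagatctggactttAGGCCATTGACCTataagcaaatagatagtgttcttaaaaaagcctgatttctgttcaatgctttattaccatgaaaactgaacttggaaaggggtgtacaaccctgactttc
The match begins at position -63, counted from the first transcribed base as 1 with no position 0. Such a match on either strand is found in 27 of 32851 promoter windows of this length, or 0.0822%. An exact match is found in 0.00913%. The motif was chosen after the sequences had been seen, so these shares do not support it as a site. A match of letters is a description and not a measured binding site.

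The other canalicular exporters gave small changes whose intervals held 0. Abcc2 lies on chromosome 19 at 43782308 to 43838332 and Abcg2 on chromosome 6 at 58584491 to 58692451. Abcc2, or Mrp2, exports bilirubin glucuronides and other conjugates, and read 11.95 and 11.65 in starved livers, against 11.59 and 11.58 in control livers (1450109_s_at). Both starved values were above both controls, but the difference of 0.22 (95% interval -0.13 to 0.57, limma, adjusted p = 0.624) was 0.069 without starved 1. Abcg2, the breast cancer resistance protein that exports drugs and porphyrins, read 10.94 and 11.06 in starved livers, against 10.83 and 11.02 in control livers (1422906_at). The groups overlapped, the difference was 0.077 (95% interval -0.24 to 0.39), and without control 1 it was -0.013.

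Abcg5 and Abcg8 are partner subunits of one pump, which sends cholesterol and plant sterols into bile and works only as the heterodimer. Abcg5 (1419393_at) read 10.36 and 10.35 in starved livers, against 10.35 and 10.07 in control livers. Abcg8 (1420656_at) read 9.40 and 9.41 in starved livers, against 9.24 and 9.28 in control livers. The changes were 0.15 (95% interval -0.19 to 0.49) for Abcg5 and 0.15 (95% interval -0.13 to 0.42) for Abcg8, with adjusted p of 0.768 and 0.696 in limma. Starved 2 exceeded control 1 by 0.0012 in Abcg5, so the groups were barely apart, and without control 2 the Abcg5 change was 0.0068.

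The stretch between the genes is shown because the pair shares it. On chromosome 17, Abcg5 lies on the minus strand at 84658174 to 84683011 and starts at 84683011. Abcg8 lies on the plus strand at 84676302 to 84700333 and has 2 annotated start windows. One start, at 84683121, is head to head with that of Abcg5 at a distance of 110 bases, and the other, at 84676302, lies inside Abcg5. The windows of Abcg5 and of the head-to-head start of Abcg8 overlap over 209 bases, chr17:84682962-84683170, given on the plus strand (RefSeq, GRCm38.p6). The capitals mark the GATA box AGATAA, the site of the GATA factors of liver and gut, on either strand.
Abcg5 and Abcg8: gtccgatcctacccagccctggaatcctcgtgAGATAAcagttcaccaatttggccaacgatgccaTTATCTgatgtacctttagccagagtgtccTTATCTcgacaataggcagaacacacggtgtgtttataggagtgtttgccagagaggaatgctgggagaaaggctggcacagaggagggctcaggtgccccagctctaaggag
The shared stretch of 209 bases holds 3 such boxes, and the window of the other Abcg8 start holds 0. Of the 32851 promoter windows, which have 300 bases, 11.2% hold at least 1. That share is not one for 3 boxes in 209 bases. This motif too was chosen after the sequences had been seen, so the share is a description only. No receptor half-site AGGTCA was found in this stretch, which says only that these letters are absent from it.

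On the sinusoidal face 2 neighbouring genes of the organic anion family differed in direction, neither past the test. Slco1a1 and Slco1a4 carry bile salts, steroid conjugates and drugs from blood into the hepatocyte. In mouse liver Slco1a1 is known as a male-predominant transcript and Slco1a4 as a female-predominant one that drugs acting through CAR and PXR induce. The sex-linked genes did not separate the groups past the test. Eif2s3y, on the Y chromosome, read 9.27 and 9.91 in starved livers, against 9.70 and 9.77 in control livers. Xist, the RNA of the inactive X, read 5.48 and 5.66 in starved livers, against 5.70 and 5.83 in control livers. The adjusted p of Eif2s3y and Xist was 0.873 and 0.624 in limma, and their mean signals lay at the percentiles of 84.8 and 33.6. Kdm5d and Uty, also on the Y chromosome, read 6.86 to 7.27 and 7.05 to 7.52 over all arrays. The groups overlapped in each of these Y-linked genes, and on every array all of them read above Xist. The part of sex in the transporter values was not tested.

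Slco1a4 (1420405_at) read 10.97 and 9.52 in starved livers, against 8.47 and 7.61 in control livers. Both starved values lay above both controls, yet each pair was wide apart, by 1.44 between the starved mice and 0.86 between the controls. For comparison, 90% of all probe sets differed by less than 0.387 between the starved arrays and by less than 0.428 between the control arrays. The change was 2.21 ± 0.50 (SE), or 4.62-fold, with a 95% interval of 0.96 to 3.45 (limma, adjusted p = 0.218). It was the largest change of the 16 probe sets, and ran from 1.49 without starved 1 to 2.93 without starved 2.

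Slco1a1 was read by 2 probe sets that gave the same direction. In the brighter, 1420379_at, Slco1a1 read 11.87 and 12.26 in starved livers, against 12.77 and 12.79 in control livers. In the other, 1449844_at, it read 10.10 and 10.86 in starved livers, against 11.31 and 11.32 in control livers. In both the control mice were nearly equal and both starved mice lay lower, starved 1 the lower of them. The changes were -0.72 ± 0.16 and -0.83 ± 0.25 (SE), with 95% intervals of -1.11 to -0.32 and -1.45 to -0.22 (limma, adjusted p = 0.208 and 0.310). Without starved 1 the changes of Slco1a1 were -0.52 and -0.45, and without starved 2 they were -0.91 and -1.22.

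The genes lie side by side on the minus strand of chromosome 6, Slco1a4 at 141805438 to 141856284 and Slco1a1 at 141907281 to 141946962, with 51.0 kb between them. Their promoters are shown because these neighbours had the opposite changes. The lines give chr6:141946913-141947212 for Slco1a1 and chr6:141856171-141856470 for Slco1a4, both on the minus strand and from RefSeq (GRCm38.p6). Capitals mark the receptor half-site AGGTCA on either strand, and the direct repeat of AGGTCA spaced by 1 base, with at most 1 mismatch, the form of repeat that PPAR-alpha and HNF4A bind. The half-site lies within the repeats, so a repeat and a half-site can be marked by the same letters.
Slco1a1: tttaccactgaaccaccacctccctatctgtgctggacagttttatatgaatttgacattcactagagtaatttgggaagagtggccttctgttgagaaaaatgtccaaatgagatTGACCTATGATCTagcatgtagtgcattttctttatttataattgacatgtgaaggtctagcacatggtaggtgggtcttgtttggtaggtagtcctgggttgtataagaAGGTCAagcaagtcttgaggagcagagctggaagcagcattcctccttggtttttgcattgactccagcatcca
Slco1a4: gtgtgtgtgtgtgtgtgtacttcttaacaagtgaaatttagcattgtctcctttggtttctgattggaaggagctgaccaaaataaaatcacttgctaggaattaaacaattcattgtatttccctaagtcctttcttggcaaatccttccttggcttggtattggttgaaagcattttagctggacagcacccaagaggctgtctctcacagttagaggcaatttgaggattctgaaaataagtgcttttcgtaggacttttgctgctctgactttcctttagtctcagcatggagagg
The Slco1a1 window holds 2 half-sites, of which 1 is part of the near match to the direct repeat, and the Slco1a4 window holds neither motif. Of the 32851 windows, 16.3% hold a half-site and 0.554% hold the direct repeat within 1 mismatch. Here as well the motifs were chosen after the sequences had been seen.

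The other genes of the cluster, named after their values were seen, had low signals, at the percentiles of 9.5 for Slco1a6, 15.6 for Slco1c1, and 12.1 and 19.3 for the 2 probe sets of Slco1a5. Their changes were -0.090 for Slco1a6, 0.026 for Slco1c1, and 0.065 and 0.24 for Slco1a5, and the groups overlapped in each.

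**Figure D2:**
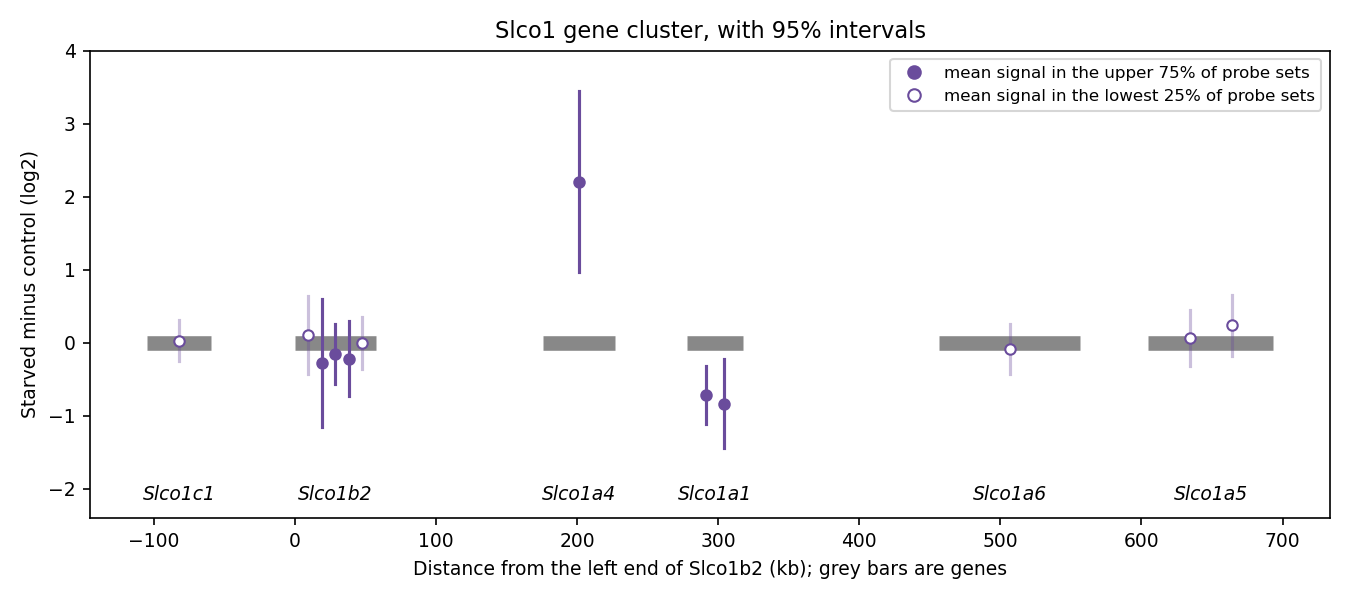
Change in log2 RMA signal (starved minus control, with 95% limma intervals) for every Slco1 probe set, drawn at its gene along the chromosome in kb from the left end of Slco1b2. Points are spread evenly within a gene and do not mark probe positions, and open points are probe sets of low mean signal. Slco1a4 stands at 2.21 and its neighbour Slco1a1 at -0.72 and -0.83, while the intervals of the other genes hold 0.

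Slco1b2, the mouse counterpart of the human OATP1B carriers, takes up bilirubin conjugates, bile acids and statins. The gene, on chromosome 6 at 141629452 to 141686646, was read by 5 probe sets, none of which differed between the groups past an unadjusted p of 0.05. In the brightest, 1452494_s_at, Slco1b2 read 12.83 and 13.44 in starved livers, against 13.32 and 13.38 in control livers, a change of -0.22 with a 95% interval of -0.74 to 0.30 (limma, adjusted p = 0.771). The probe set 1449394_at gave 12.74 and 13.15 in starved livers, against 13.17 and 13.03 in control livers. In 1427826_a_at Slco1b2 read 7.52 and 8.68 in starved livers, against 8.36 and 8.40 in control livers. In each of these 3 probe sets starved 1 was the lowest array and the groups overlapped.

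The remaining probe sets of Slco1b2, 1427825_at and 1452569_at, had signals between 4.61 and 5.22 on every array, at the percentiles of 20.9 and 24.1 of all probe sets, and their changes were 0.11 and -0.0054. Starved 1 was lower than starved 2 in 5 of the 5 Slco1b2 probe sets, by 0.24 to 1.16. The sign of the change depended on single arrays. Without starved 1 the change of Slco1b2 was 0.082 in 1452494_s_at, 0.047 in 1449394_at and 0.30 in 1427826_a_at. Without starved 2 it was -0.52, -0.36 and -0.86. Of the dim probe sets, 1427825_at was 0.41 without starved 1 and -0.20 without starved 2, and 1452569_at was 0.11 without starved 1 and 0.10 without control 2. No direction is given for this gene.

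The promoter of Slco1b2 is shown because it is the other member window with the FXR type of inverted repeat within 1 mismatch, beside a gene with no clear change. The line gives chr6:141629268-141629567 on the plus strand (RefSeq, GRCm38.p6), with the near match in capitals.
Slco1b2: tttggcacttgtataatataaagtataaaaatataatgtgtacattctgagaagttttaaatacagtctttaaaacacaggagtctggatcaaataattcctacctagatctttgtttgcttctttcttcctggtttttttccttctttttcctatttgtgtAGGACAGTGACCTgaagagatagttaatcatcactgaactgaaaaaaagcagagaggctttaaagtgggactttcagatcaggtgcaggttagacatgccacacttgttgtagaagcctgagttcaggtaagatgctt
This match begins at position -88, counted from the annotated start on which the window is set. That start lies inside the gene as placed above, to the right of its left end at 141629452. Of the 14 promoter windows listed for the 10 members, those of Abcb11 and Slco1b2 held the repeat. The motifs given here were chosen after the sequences had been seen.

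Slc10a1, the main sodium-coupled carrier for conjugated bile acids, lies on chromosome 12 at 80953185 to 80968705 and was read by 2 probe sets. In 1424898_at Slc10a1 read 13.44 and 13.33 in starved livers, against 13.40 and 13.10 in control livers. In 1450261_a_at it read 12.38 and 12.27 in starved livers, against 12.24 and 11.98 in control livers. The groups overlapped in the first and were 0.034 apart in the other. The changes of Slc10a1 were 0.14 (95% interval -0.22 to 0.49) and 0.22 (95% interval -0.12 to 0.56), with adjusted p of 0.802 and 0.619 in limma. Control 2 was the lowest array in both, and without it the changes were -0.014 and 0.091.

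**Figure D3:**
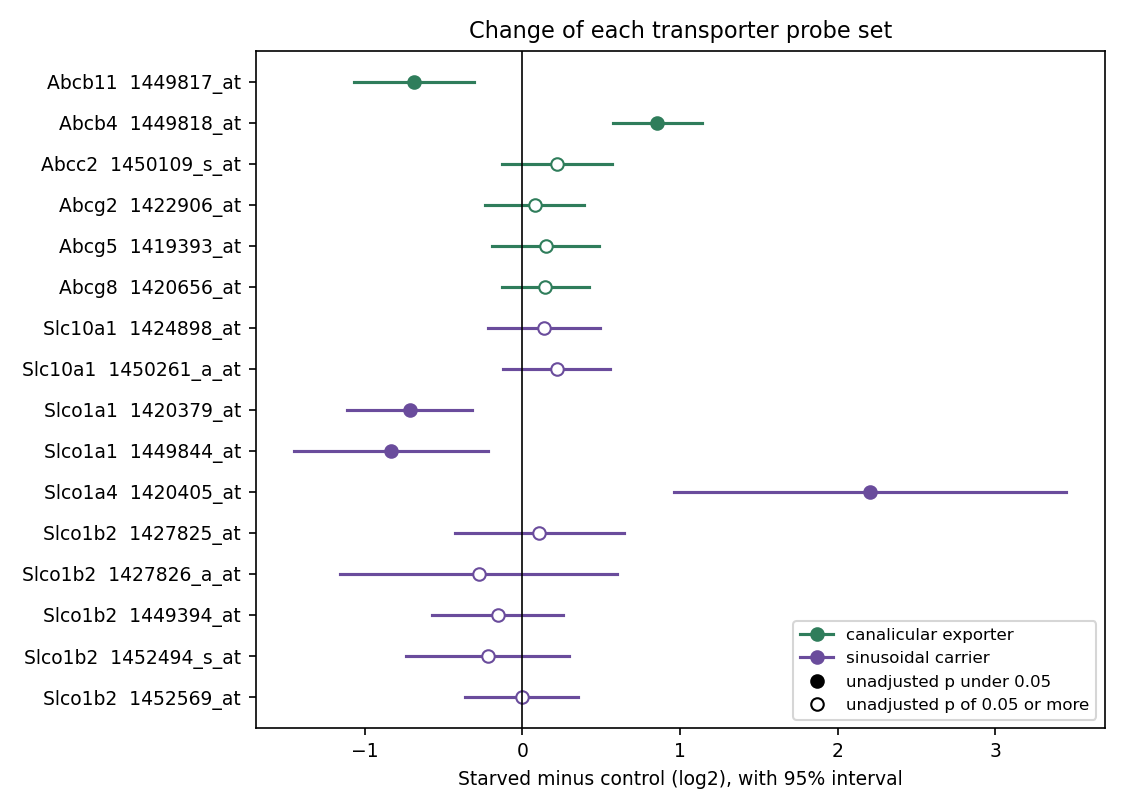
Change of each transporter probe set (starved minus control, log2) with its 95% limma interval, the canalicular exporters in green and the sinusoidal carriers in purple. Filled points have an unadjusted p under 0.05, and the intervals of the other 11 probe sets hold 0, with changes between -0.28 and 0.22.

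On each of the 2 faces the members' changes had both signs. The median change of the 6 canalicular probe sets was 0.15, with members from -0.69 to 0.86, and that of the 10 sinusoidal probe sets was -0.081, with members from -0.83 to 2.21. The median over all 22626 probe sets was 0.0028. The sinusoidal median was 0.099 without starved 1 and -0.28 without starved 2. The median standard error was 0.19 for the sinusoidal and 0.13 for the canalicular probe sets, against 0.13 over all probe sets. The gap between the starved mice was 0.0054 to 0.30 in the canalicular probe sets and 0.24 to 1.44 in those of the 3 Slco1 genes. These ranges overlap, and their difference was not tested. In the probe sets of Slc10a1, also sinusoidal, the gap was 0.10 and 0.12. Of the 10 sinusoidal probe sets 5 report Slco1b2, and starved 1 was below starved 2 in each of those 5.

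**Figure D4:**
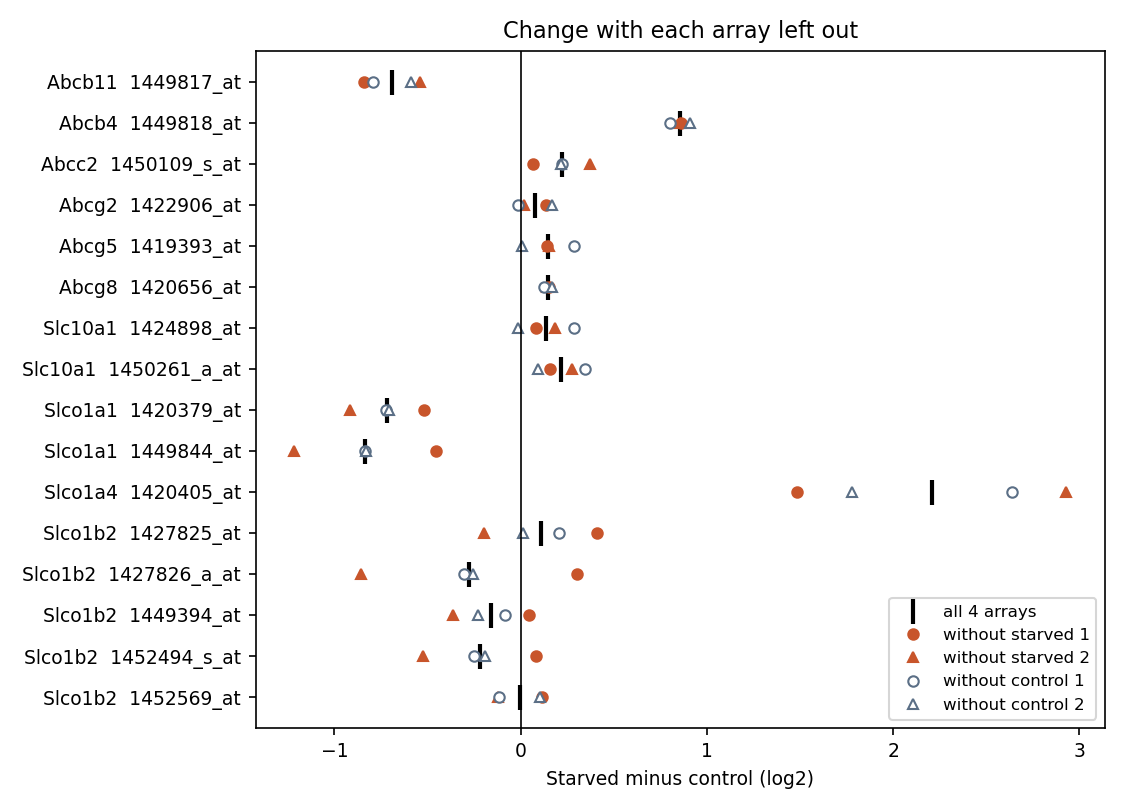
Change of each transporter probe set (starved minus control, log2) with all 4 arrays, as a black tick, and with 1 array left out, as a symbol. Filled symbols leave out a starved and open symbols a control array. Abcb11, Abcb4, both Slco1a1 probe sets and Slco1a4 stay on their side of 0 in every fit, as do Abcc2, Abcg5, Abcg8 and Slc10a1 (1450261_a_at). Probe sets of Slco1b2 cross 0 when starved 1, starved 2 or control 2 is left out. Abcg2 crosses it without control 1, and Slc10a1 (1424898_at) without control 2.

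Measures of the arrays are set beside the transporter values here. RNA integrity can be read from how far the 3′ beta-actin control probe set exceeds the 5′ one, which was 2.06 and 1.85 in starved livers, against 1.79 and 1.76 in control livers. The same measure for Gapdh was 0.864 and 0.482 in starved livers, against 0.646 and 0.538 in control livers, so the groups overlapped there, with starved 1 the highest and starved 2 the lowest. Starved 1 was the array with the lowest Slco1a1 and Slco1b2 and the highest Slco1a4. Of 20 acute phase genes, all were measured and none passed over all probe sets. Their linear signals summed to 161706 to 164428 in starved livers and 184238 to 311283 in control livers, the high value being control 2. At an unadjusted p under 0.05, 0 were higher, against 5.31% of all genes, and 5 lower, against 6.05%. The median change was -0.62, against 0.0031 over all genes. Saa4, named after its values were seen, read 12.90 and 13.04 in starved livers, against 13.86 and 13.95 in control livers, so control 1 was also high there. In Saa1 and Saa2 the groups overlapped. On control 2 the neutrophil protein Lcn2 read 13.49 and the acid glycoprotein Orm2 13.79, against 8.84 to 9.35 and 9.10 to 9.34 on the other arrays. Control 2 was also the array with the lowest Slco1a4 and Slc10a1, and without it the Slco1a4 change was 1.78. The part of RNA integrity and of the acute phase difference in the transporter values was not tested.

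Nuclear receptors and other regulators of these genes were described by a list of their own. Of 20 listed, 18 were measured, none passed over all probe sets, and at an unadjusted p under 0.05 with 1 probe set per gene 3 were higher, against 5.31% of all genes, and 0 lower, against 6.05%. The median change was 0.11, against 0.0031 over all genes. Nr1i3 (CAR), which induces drug and bile acid clearance genes, read 10.05 and 10.10 in starved livers, against 9.33 and 8.52 in control livers, a change of 1.15 ± 0.26 (SE, limma, adjusted p = 0.218). Nr1h4 (FXR) read 10.85 and 10.68 in starved livers, against 10.34 and 9.87 in control livers, a change of 0.66 ± 0.18 (limma, adjusted p = 0.288). In both genes the groups were apart and control 2 was the lowest array.

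The coactivator Ppargc1a read 9.85 and 8.57 in starved livers, against 8.09 and 8.31 in control livers, with starved 1 far above the others (change 1.01, limma, adjusted p = 0.425). Nr0b2 (SHP), the repressor that FXR induces, read 9.72 and 9.17 in starved livers, against 10.19 and 9.37 in control livers, and the groups overlapped (change -0.33, limma, adjusted p = 0.762). Ppara had a change of 0.30 and Nr1i2 (PXR) one of 0.27 (limma, adjusted p = 0.603 and 0.675). The retinoic acid receptor gene Rara had a change of -0.37 (limma, adjusted p = 0.522).

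Proteins that hold the pumps and carriers in the membrane were described by a list of 16, of which 15 were measured. None passed over all probe sets. At an unadjusted p under 0.05, 0 were higher, against 5.31% of all genes, and 2 lower, against 6.05%, and the median change was -0.037, against 0.0031 over all genes. The lower ones were Slc9a3r1, the scaffold NHERF1 that ties apical transporters to ezrin and radixin, with a change of -0.35 ± 0.12 (SE), and Hax1, a binding partner of Abcb11, with -0.36 ± 0.13 (limma, adjusted p = 0.345 and 0.402). Slc9a3r1 read 11.98 and 12.05 in starved livers, against 12.41 and 12.32 in control livers. Pdzk1, the scaffold that keeps Slco1a1 at the cell surface in mice, read 8.75 and 9.09 in starved livers, against 9.41 and 9.20 in control livers, so both starved values were below the controls (change -0.39, limma, adjusted p = 0.446). Vipas39, which acts in apical delivery of membrane proteins, had a change of 0.32 (limma, adjusted p = 0.483).

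Other carriers of the hepatocyte also had changes of both signs. Of 21 listed uptake genes 15 were measured, of which none passed over all probe sets. At an unadjusted p under 0.05, 2 were higher, against 5.31% of all genes, and 2 lower, against 6.05%, with a median change of -0.099, against 0.0031 over all genes. Slc22a5, the carnitine carrier OCTN2, read 9.44 and 9.997 in starved livers, against 8.80 and 8.49 in control livers, a change of 1.07 ± 0.22 (SE). Slc27a2, a fatty acid transport protein with acyl-CoA synthetase activity, had a change of 0.44 ± 0.12. The organic anion carriers Slc22a30 and Slc22a7 had changes of -1.25 ± 0.20 and -1.06 ± 0.25. Both starved arrays were on one side of both controls in these 4 genes, and the adjusted p lay between 0.109 and 0.269 in limma.

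Of 20 other ABC and efflux genes 16 were measured, with none past the test over all probe sets. At an unadjusted p under 0.05, 0 were higher, against 5.31% of all genes, and 3 lower, against 6.05%, with a median change of -0.14, against 0.0031 over all genes. The lower ones were the mitochondrial transporter Abcb10 (-0.75 ± 0.14, SE) and the ABCA members Abca8b and Abca8a (-0.35 and -1.03). Atp7b, which exports copper to bile, had a change of -0.36 (limma, adjusted p = 0.461). Abcc3, the sinusoidal exporter of conjugates and bile acids, named here after its values were seen, read 9.96 and 9.998 in starved livers, against 9.97 and 8.10 in control livers. Its change was 0.94 (limma, adjusted p = 0.593), with control 2 low and control 1 between the starved mice.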

How the data were processed

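Liver RNA of 4 mice, 2 starved and 2 control, was hybridised to 1 array each, grouped by the titles of the samples. The deposited values are log2 signals per probe set that the authors made with RMA in affy, per the submitters' processing notes, and whether other arrays were normalized with these 4 is not given in the sources used here. Signals ran from 2.83 to 15.47 with array medians of 6.71 to 6.74, and with 2 arrays per group the precision is low.

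Of 22690 probe sets, 64 Affymetrix controls were left out. The annotation gave 1 symbol to 20380 of the others, several to 691 and none to 1555. Symbols were updated by Entrez identifier in the RefSeq table of GRCm38.p6 (20351 matched), which also gave positions and promoters. All 22626 probe sets entered 1 fit with lmFit and eBayes (limma 3.58.1, R 4.3.3), two-sided, with 5.83 degrees of freedom in total. Benjamini-Hochberg adjustment ran over all of them, with 0.05 as threshold. Code was checked on simulated arrays. An exact permutation test of 2 against 2 arrays cannot go below p = 0.333 and was not run. P-values rest on the spread among these 4 animals alone.

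Context lists used the probe set with the highest mean of each gene. Members and lists were chosen with earlier results of these data known. Named are all member probe sets, the 4 genes of smallest p in each carrier, regulator and scaffold list, preset receptors and array checks. RMA removes any shift shared by all transcripts. Probe sets ending in _s_at and _a_at can read several transcripts or relatives.

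Same-numbered mice did not deviate together (r = 0.038 across probe sets of the deviations of starved 1 and control 1), so no pairing was used. Alternatives covered normalization, unit of test, dim and cross-hybridising probe sets, the variance model, the threshold, a replicate block and each array left out.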

Additional observations from a re-analysis of the deposited data

How the results depend on the processing

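With 14 alternatives to the main setting, the count of transporter probe sets past the test stayed at 0 in 13 and was 1 at an adjusted p under 0.10 (Abcb4, change 0.86, adjusted p = 0.0893 in limma). The count at an unadjusted p under 0.05 was 5 of 16, 4 of 10 with genes as the unit, and 5 to 7 with 1 array left out. The count over all probe sets, 13, was 8 with 1 probe set per gene, 23 without _x_at and _s_at probe sets, 44 with robust eBayes, 97 at an adjusted p under 0.10, and 2 to 57 with 1 array left out (2 without starved 1, 57 without control 1). With the replicate number as a block it was 0 (limma, with 5 transporter probe sets at an unadjusted p under 0.05), and same-numbered arrays did not deviate together (r = 0.038). Medians ran from 0.14 to 0.17 (canalicular) and from -0.28 to 0.099 (sinusoidal) with 1 array left out. The sinusoidal median, -0.081, was 0.033 from gene means, -0.042 with 1 probe set per gene, -0.0054 without _x_at and _s_at probe sets and -0.19 without the dim 40% of probe sets. In 9 of 16 probe sets the sign held in every setting, and the other 7 crossed 0 with 1 array left out. Their changes then ran from -0.20 to 0.41 (1427825_at), -0.86 to 0.30 (1427826_a_at), -0.36 to 0.047 (1449394_at), -0.52 to 0.082 (1452494_s_at) and -0.12 to 0.11 (1452569_at) for Slco1b2, from -0.013 to 0.17 for Abcg2 and from -0.014 to 0.29 for Slc10a1 (1424898_at). The cause was not tested. The filter on dim probe sets dropped 2 of the 16, both of Slco1b2. A group reduced to 1 array borrows its spread from the group that kept both.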
